A study of Mus musculus and Homo sapiens with 22 samples.

Results

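Splicing joins exons by cutting out the introns between them, and a transcript that keeps an intron or uses another splice site can carry a different message from the same gene. The genes NIT1, EMC3, BRF1, ZNF775 and TYMS are 5 of the 13524 genes in the authors' deposited table of splicing variations, and they were chosen by the large differences in junction and intron inclusion that table showed. The values that chose them are given as a description, with no test. Their introns in a second authors' table and their levels in another experiment of the same series did not set the choice. Earlier results of these data were known when it was made, and the intron table is of the same samples as the splicing table.

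The human samples were of HEK293, a line from human embryonic kidney. These biosensor cells carry P301S tau repeat domain joined to CFP and, in a second construct, to YFP. The repeat domain is the piece of tau that aggregates, and the fluorescent tags make aggregates visible. At 96 h, 3 samples had been transfected with 200 ug per dish of clarified brain homogenate from P301S mice and held tau aggregates, and 3 were mock transfected and held none. At 24 h all 4 samples had received that homogenate: 2 were RNA from aggregates, spun down and then sorted by their fluorescence, and 2 were total RNA. Both sets thus carry the tau transgenes in every sample, and each human replicate was a plate of its own, per the labels. A further 12 libraries were of mouse brain, from the lines rTg4510 with P301L tau and rTg21221 with wild-type tau. They were total RNA, sarkosyl-insoluble RNA and tau-12 immunoprecipitates. Both tau transgenes were driven through Camk2a. The strain label of the P301L immunoprecipitates names Camk2a-tTA and also lists a (tet)-tdTomato-Syp/EGFP transgene.

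The 5 genes do unlike work. NIT1 is a nitrilase family amidase that removes deaminated glutathione. EMC3 is a core subunit of the ER membrane protein complex, which inserts membrane proteins into the endoplasmic reticulum. BRF1 is a subunit of TFIIIB, the factor that places RNA polymerase III on tRNA and 5S rRNA genes. TYMS is thymidylate synthase, which makes the thymidylate needed for DNA. ZNF775 encodes a zinc finger protein.

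A splicing variation is a set of junctions that leave the same exon (a source exon) or enter the same exon (a target exon), with intron retention listed as a further choice. The share of each choice is its PSI, from 0 to 1. The authors' deposited table gives 1 expected PSI per group, their difference, and the probability that the absolute difference is at least 0.2. A junction was called where the absolute difference was at least 0.1 and that probability at least 0.95. The expected difference comes from the authors' model and need not equal the PSI gap exactly.

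The 5 genes held 50 variations with 33 junctions and introns in NIT1, 20 in EMC3, 64 in BRF1, 14 in ZNF775 and 30 in TYMS in the authors' deposited table. Each gene had 1 called variation with 2 called entries, against 0.0674% of all junctions and introns, 0.115% of all 107827 variations and 0.614% of all genes with a called variation. The table chose the genes, so nothing is read from those counts. In NIT1, EMC3, BRF1 and ZNF775 the called variation had an intron that was near 0 in mock cells and the leading choice in cells with aggregates. In TYMS the variation held no intron, and 3 alternative junctions into 1 exon changed places.

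In NIT1 (ENSG00000158793, chromosome 1, plus strand, hg38) the variation entered the exon at chr1:161124141-161125445. Its intron had a PSI of 0.775 with aggregates and 0.008 in mock cells in the authors' deposited table, a difference of 0.77 with probability 1.0. The junction chr1:161120232-161124141 had 0.215 with aggregates and 0.961 in mock cells in the authors' deposited table, a difference of -0.76. The remaining junction, chr1:161122338-161124141, had 0.009 with aggregates and 0.031 in mock cells in the authors' deposited table. The intron was the leading choice with aggregates and the long junction the leading choice in mock cells.

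In EMC3 (ENSG00000125037, chromosome 3, minus strand) the variation entered the exon at chr3:9997254-9997389, which lies upstream of all 9 of the gene's introns in the authors' intron table. The intron had a PSI of 0.703 with aggregates and 0.008 in mock cells in the authors' deposited table, a difference of 0.69. The junction chr3:9997389-9998455 had 0.24 with aggregates and 0.825 in mock cells in the authors' deposited table, a difference of -0.59. A second junction, chr3:9997389-9998776, had 0.058 with aggregates and 0.167 in mock cells in the authors' deposited table, and was not called (probability 0.028).

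In BRF1 (ENSG00000185024, chromosome 14, minus strand) the variation left the exon at chr14:105252507-105252579. The intron had a PSI of 0.667 with aggregates and 0.002 in mock cells in the authors' deposited table, a difference of 0.67. The junction chr14:105241414-105252507 had 0.249 with aggregates and 0.75 in mock cells in the authors' deposited table, a difference of -0.52. A longer junction, chr14:105228913-105252507, had 0.085 with aggregates and 0.248 in mock cells in the authors' deposited table, and was not called (probability 0.161). Both junctions of this exon had a lower PSI with aggregates, and 1 of them was called.

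In ZNF775 (ENSG00000196456, chromosome 7, plus strand) the variation left the exon at chr7:150368790-150368941, and it had 5 choices. The intron had a PSI of 0.657 with aggregates and 0.002 in mock cells in the authors' deposited table, a difference of 0.66. The junction to 150371231 had 0.149 with aggregates and 0.522 in mock cells in the authors' deposited table, a difference of -0.37 with probability 0.988. The junctions to 150370760 and 150372369 were lower without a call, at 0.122 and 0.068 with aggregates, against 0.314 and 0.16 in mock cells, in the authors' deposited table. The junction to 150388422, where another exon of ZNF775 begins, had 0.001 with aggregates and 0.002 in mock cells in the authors' deposited table. That junction is the only one of the 4 that ends at an exon with a ZNF775 variation of its own in the table.

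In TYMS (ENSG00000176890, chromosome 18, plus strand) the variation entered the exon at chr18:667395-667752. The junction chr18:667394-667512 had a PSI of 0.007 with aggregates and 0.683 in mock cells in the authors' deposited table, a difference of -0.68. The junction chr18:667221-667395 had 0.48 with aggregates and 0.011 in mock cells in the authors' deposited table, a difference of 0.46 with probability 0.999. The junction chr18:667110-667618 had 0.513 with aggregates and 0.306 in mock cells in the authors' deposited table, and was not called (probability 0.213). All 3 junctions lie between exons that the main TYMS path joins directly.

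**Figure D1:**
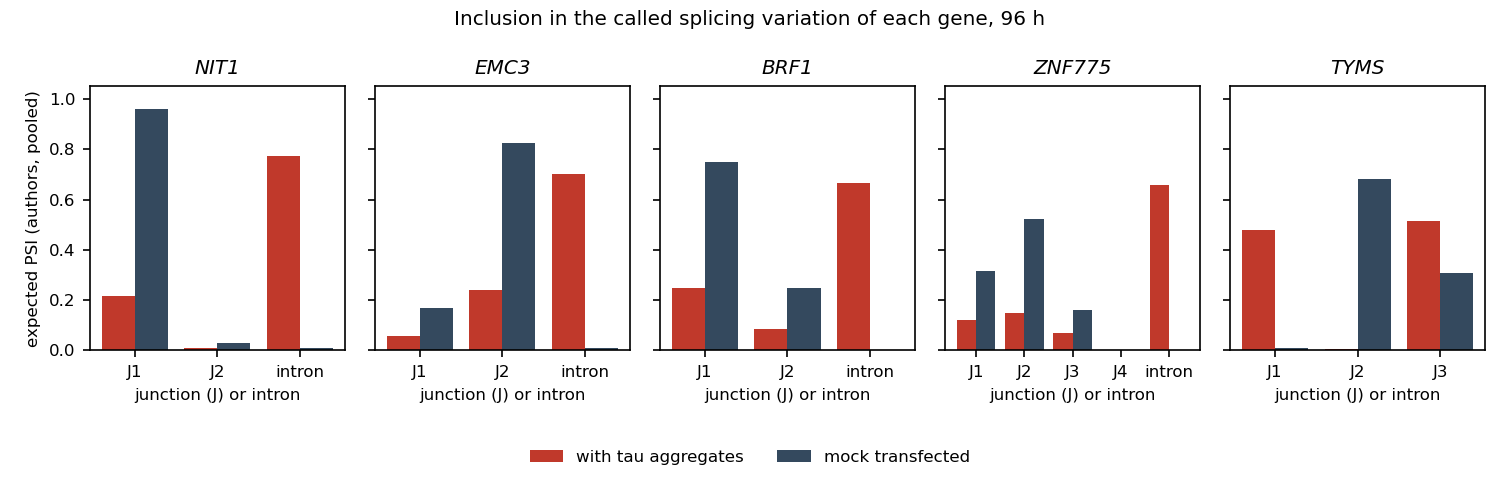
Expected PSI (vertical axis, no unit, 0 to 1) of each junction (J1 to J4 in the table's order) and intron in the called variation of each gene at 96 h, with 1 pooled value per group from the authors' table and no error. Bars on the left of each pair are cells with tau aggregates and bars on the right are mock transfected cells. In 4 genes the intron stood at 0.657 to 0.775 with aggregates and at 0.002 to 0.008 in mock cells. In TYMS J2 led in mock cells, at 0.683, and J3 led with aggregates, at 0.513, followed by J1 at 0.48.

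With the intron set aside, the spliced junctions of NIT1, EMC3 and BRF1 stood in nearly the same proportions in both groups. Among spliced junctions alone, computed from the authors' deposited table, the main junction of NIT1 held 0.96 with aggregates and 0.969 in mock cells. The same share was 0.805 with aggregates and 0.832 in mock cells for the EMC3 junction to 9998455, and 0.746 with aggregates and 0.752 in mock cells for the BRF1 junction to 105241414, both from the authors' deposited table. In ZNF775 the junction to 150371231 held 0.438 of the spliced share with aggregates and 0.523 in mock cells, from the authors' deposited table. In TYMS the difference was among the junctions themselves.

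No variation of the 5 genes was called beyond these 5. The largest absolute difference in the other 45 variations was 0.06 in NIT1, 0.23 in EMC3, 0.08 in BRF1, 0.11 in ZNF775 and 0.03 in TYMS in the authors' deposited table. Of these 45, 2 reached 0.1. The EMC3 one left the exon at chr3:9998776-9998899, next to the called variation, where the intron had a PSI of 0.82 with aggregates and 0.581 in mock cells in the authors' deposited table (probability 0.688). The ZNF775 one entered the exon at chr7:150388422-150388501, where the junction from 150379392 had 0.564 with aggregates and 0.388 in mock cells in the authors' deposited table (probability 0.162). Median absolute differences of the other variations ran from 0.0034 in EMC3 to 0.0434 in ZNF775 in the authors' deposited table.

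**Figure D2:**
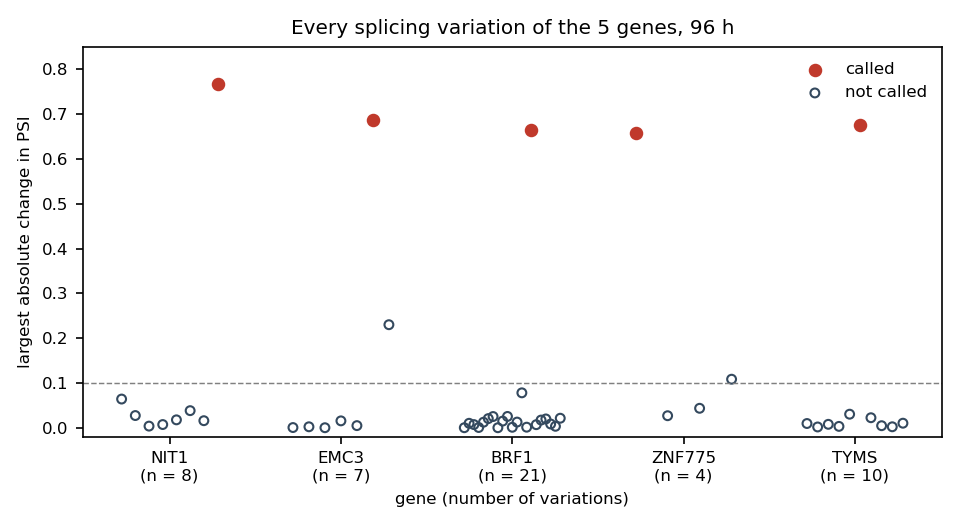
Largest absolute difference in PSI (vertical axis, no unit) of every splicing variation of the 5 genes at 96 h, cells with tau aggregates minus mock transfected cells, from the authors' table. Filled points are called variations and open points are not called, and the dashed line marks 0.1: 1 filled point per gene stands between 0.66 and 0.77, and the open points reach 0.23 at most.

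The same splice junctions gave other values where the table lists them from their other end. The NIT1 junction chr1:161120232-161124141, seen from its source exon, had a PSI of 0.051 with aggregates and 0.075 in mock cells, and the intron there had 0.321 with aggregates and 0.311 in mock cells, in the authors' deposited table. The BRF1 junction chr14:105241414-105252507, seen from the exon it enters, had 0.654 with aggregates and 0.624 in mock cells, and the intron there had 0.159 with aggregates and 0.183 in mock cells, in the authors' deposited table. Seen from the far end, neither junction and neither intron was called.

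For EMC3 and ZNF775 the same exon edge is also listed under another gene with the direction turned round, which places the listings on opposite strands. The EMC3 exon stands as a source exon under ENSG00000180385, a gene ID that the files give no name, with the same 2 junctions and no intron. The junction to 9998455 had a PSI of 0.804 with aggregates and 0.829 in mock cells in that listing of the authors' deposited table. The 3 main ZNF775 junctions stand under AC005586.1 as junctions into the exon edge at 150368941, again with no intron. The one to 150371231 had 0.441 with aggregates and 0.523 in mock cells in that listing of the authors' deposited table. The 3 junctions also stand in the same direction as in ZNF775 under ENSG00000214022, likewise without a name in the files, from the source exon chr7:150368790-150369033 that starts at the same base. There the intron had a PSI of 0.244 with aggregates and 0.208 in mock cells, and the junction to 150371231 had 0.054 with aggregates and 0.053 in mock cells, in the authors' deposited table. The listings with no intron hold the same main junctions. They therefore lie close to the spliced shares of EMC3 and ZNF775 by construction, which is no separate result. The remaining ZNF775 junction, to 150388422, is listed under no other gene. It held 0.003 of the spliced share with aggregates and 0.002 in mock cells, from the authors' deposited table. Whether reads of the other genes enter the intron values of EMC3 and ZNF775 was not tested. Overlapping the NIT1 exon the table also lists 3 variations of DEDD, on the minus strand, and their largest absolute difference was 0.02 in the authors' deposited table.

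The main TYMS path did not show the switch. The junction chr18:657947-659641 had a PSI of 0.967 in both groups, and chr18:659714-662146 had 0.928 with aggregates and 0.924 in mock cells, in the authors' deposited table. The junction chr18:662320-669072, which skips the whole called region, had 0.938 with aggregates and 0.925 in mock cells from its source exon in the authors' deposited table. The junction from the called exon onward, chr18:667752-669072, had a PSI of 0.0 in both groups where it enters the exon at 669072 in the authors' deposited table.

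An intron PSI near 0 in mock cells was unusual in the table as a whole. However, NIT1, EMC3, BRF1, ZNF775 and the called entries were picked by a large difference in PSI. Such a choice favours a value near 0 in 1 group, so nothing about the genes is read from the counts that follow. Of all 71480 intron entries, 610 (0.853%) had a PSI of at most 0.02 in mock cells and 460 (0.644%) with aggregates in the authors' deposited table. Of the 74 called intron entries (0.104%), 60 were higher with aggregates (0.0839%), and 41 of those 60 had a mock PSI of at most 0.02, in the authors' deposited table. The 14 lower ones (0.0196%) mirrored this, since 10 of them had a PSI of at most 0.02 with aggregates in the authors' deposited table. The lowest mock PSI among the other intron entries of each gene was 0.311 in NIT1, 0.076 in EMC3, 0.115 in BRF1, 0.267 in ZNF775 and 0.033 in TYMS in the authors' deposited table. The called intron entries are not all from separate genes. FP236383.1 alone held 25 called variations and FP671120.2 held 7, both on chromosome 21, in the authors' deposited table.

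**Figure D3:**
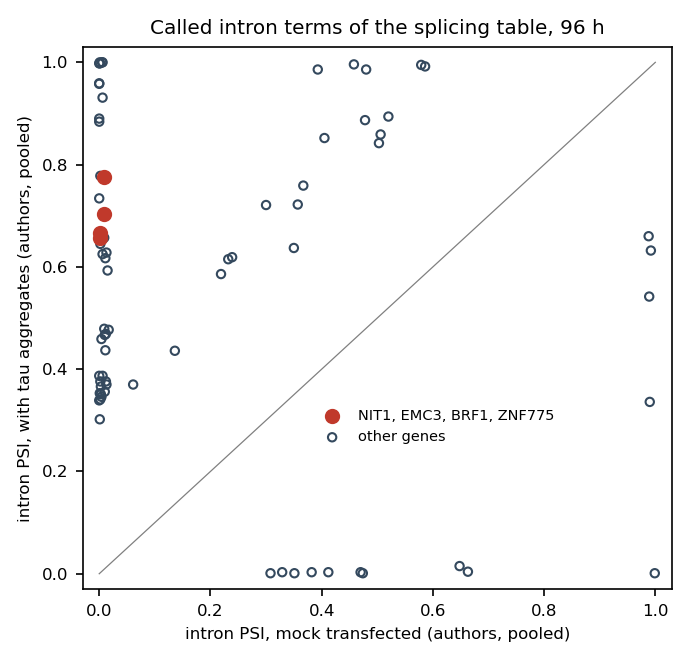
Intron PSI in cells with tau aggregates (vertical axis) against mock transfected cells (horizontal axis), no unit, 1 point for each of the 74 called intron entries of the splicing table at 96 h, pooled per group by the authors. The line marks equal values: the filled points of NIT1, EMC3, BRF1 and ZNF775 stand at the left edge with 37 other entries whose mock PSI was at most 0.02. Several of these other entries come from the same gene.

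Ranked by the largest absolute difference of a called junction or intron, NIT1 stood at place 4, EMC3 at 6, TYMS at 7, BRF1 at 8 and ZNF775 at 9 among the genes of the authors' deposited table. Above them stood FP236383.1 and FP671120.2 (both 0.97 for an intron) and NBPF10 (-0.80, 0.197 with aggregates and 0.986 in mock cells), in the authors' deposited table. NBPF10 belongs to a family of near-identical copies, so its junction reads are uncertain. Next below ZNF775, at 0.66, came ENSG00000286237, at 0.65, with 0.996 with aggregates and 0.337 in mock cells in the authors' deposited table.

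The second authors' table counts reads within whole introns, in the same 96 h libraries as the splicing table. It did not set the choice of genes. It lists 44 introns of the 5 genes, of which 25 have an adjusted p. None was called at an adjusted p under 0.05 in the authors' deposited table, in DESeq2's format, against 1.65% (1.5% higher, 0.146% lower) of the 82091 introns with an adjusted p, and 3 (6.82% of the 44) had an unadjusted p under 0.05, against 7.02% over the whole table. Over the 44 introns 26 had a log2 change above 0 and 18 below, with a median of 0.05, beside a median of 0.01 over the 172099 introns of the authors' deposited table. The header does not name the direction of the log2 change. It was taken as cells with aggregates over mock cells, because 110 of 110 higher and 7 of 7 lower introns with p under 0.05 and a PSI difference of at least 0.05 had the sign of the splicing table.

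All 9 EMC3 introns had a log2 change above 0, from 0.26 to 0.63, in the authors' deposited table. The smallest p was that of chr3:9981748-9986506, with a log2 change of 0.63 ± 0.19 (SE) and an adjusted p of 0.0504 in the authors' deposited table, just past the threshold. Its neighbour chr3:9978298-9981633 had 0.59 ± 0.21 (SE) and an adjusted p of 0.157 in the authors' deposited table. The intron chr3:9970662-9973505 had 0.50 ± 0.25 (SE) and an adjusted p of 0.404 in the authors' deposited table. None of the 9 touches the exon of the called variation, so they are counts from elsewhere in the gene. Their mean normalized counts ran from 7.23 to 219 in the authors' deposited table.

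BRF1 had 17 introns, 9 above 0 and 8 below, with log2 changes of -0.36 to 0.70 in the authors' deposited table. The intron on the downstream side of the called exon, chr14:105251094-105252506, had a log2 change of -0.07 ± 0.20 (SE), a mean normalized count of 139.7 and an adjusted p of 0.948 in the authors' deposited table. That is the side on which the splicing table gave the intron PSI of 0.667 with aggregates and 0.002 in mock cells. The intron on the upstream side, chr14:105252580-105256185, had 0.06 ± 0.23 (SE) and an adjusted p of 0.965 in the authors' deposited table. The smallest p in BRF1 was that of chr14:105226291-105226633, with 0.70 ± 0.45 (SE) and a p of 0.119, with no adjusted p, in the authors' deposited table.

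TYMS had 5 introns, 3 above 0 and 2 below. The intron chr18:662321-667720, which contains the start of the called exon, had a log2 change of -0.17 ± 0.20 (SE) and an adjusted p of 0.819 in the authors' deposited table. The intron that begins at the end of that exon, chr18:667753-669071, had -0.24 ± 0.24 (SE) and an adjusted p of 0.782 in the authors' deposited table. The smallest p was that of chr18:659715-662145, with 0.35 ± 0.21 (SE) and an adjusted p of 0.543 in the authors' deposited table.

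NIT1 had 4 introns, from -0.33 to 0.50, and its smallest p was 0.268 for chr1:161120233-161120498, with 0.50 ± 0.45 (SE), in the authors' deposited table. ZNF775 had 9 introns, from -0.70 to 0.03, and its smallest p was 0.261 for chr7:150400973-150404485, with -0.49 ± 0.44 (SE), in the authors' deposited table. No listed intron touches the called exon of NIT1, EMC3 or ZNF775, so the intron counts give no value for those 3 retained stretches. An intron of DEDD that begins at the end of the NIT1 exon had a log2 change of 0.37 ± 0.18 (SE) and an adjusted p of 0.399 in the authors' deposited table. Of 3 introns of PFDN2, on the other side of NIT1, 1 was called in the authors' deposited table. That intron, chr1:161102376-161117951, had a log2 change of 0.56 ± 0.16 (SE) and an adjusted p of 0.0262 in the authors' deposited table. None of the 4 introns of DEDD was called in the authors' deposited table. Beside TYMS none of 14 ENOSF1 and 2 TYMSOS introns was called, and beside BRF1 none of 25 PACS2 introns, in the authors' deposited table. Of all introns with an adjusted p, 1.65% were called in the authors' deposited table. Nothing about NIT1 is read from the PFDN2 intron.

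**Figure D4:**
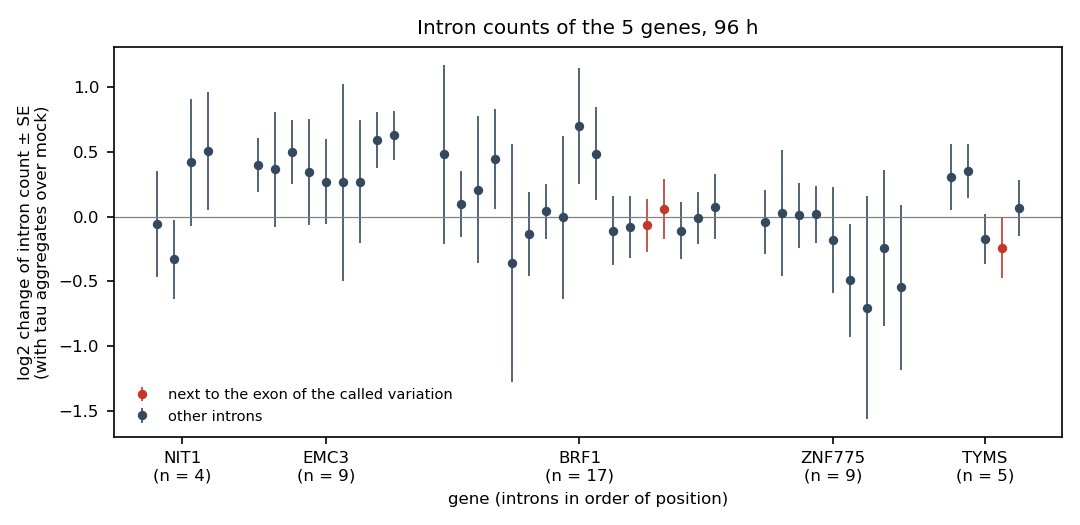
Log2 change of the read count in each of the 44 introns of the 5 genes at 96 h (vertical axis), cells with tau aggregates over mock transfected cells, with bars of 1 SE, all from the authors' table. Introns run in order of position within a gene, and red points touch the exon of the called variation: the 9 EMC3 introns lie at 0.26 to 0.63, all above 0, and the red points of BRF1 and TYMS lie at -0.24 to 0.06.

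Levels of the 5 genes were measured at 24 h as FPKM, reads scaled to gene length and to library depth. The aggregate libraries held 1188394 and 878660 reads on genes and the total RNA libraries 13688056 and 13802429, so a low value in aggregates rests on few reads. With limma on log2(FPKM + 1) and Benjamini-Hochberg adjustment over 13163 genes, 2 of the 5 genes were called (BRF1 higher, TYMS lower), against 41.9% of all genes, 22.2% higher and 19.7% lower. That count is near the background. The number of genes called moved to 9241 and 9056 without aggregate replicate 1 or 2, and to 0 and 5 without total RNA replicate 1 or 2. In bulk RNA fewer cells or particles and less RNA in each cannot be told apart.

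BRF1 had 43.1 and 46.0 FPKM in aggregates (195 and 154 reads), against 15.8 and 14.1 FPKM in total RNA (825 and 740 reads). Both aggregate libraries stood above both total RNA libraries. The log2 change was 1.52 ± 0.10 (SE), adjusted p = 0.00624 with limma. The adjusted p was 0.0755 without total RNA replicate 1 and 0.0760 without replicate 2, with log2 changes of 1.59 and 1.44.

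TYMS had 45.4 and 38.8 FPKM in aggregates (87 and 55 reads), against 67.3 and 71.9 FPKM in total RNA (1485 and 1600 reads). Both aggregate libraries stood below both total RNA libraries. The log2 change was -0.71 ± 0.11 (SE), adjusted p = 0.0154 with limma. The adjusted p with limma was 0.124 without total RNA replicate 1 and 0.152 without replicate 2.

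NIT1 had 11.7 and 12.0 FPKM in aggregates (29 and 22 reads), against 14.8 and 15.7 FPKM in total RNA (423 and 451 reads). The groups did not overlap, and the log2 change of -0.34 ± 0.09 (SE) missed the threshold at adjusted p = 0.0538 with limma. It passed with each library centred on its median, at -0.41 and adjusted p = 0.0382 with limma, and over all settings the adjusted p ran from 0.0146 to 0.475.

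ZNF775 had 4.84 and 9.56 FPKM in aggregates, from 13 and 19 reads, against 3.91 and 2.85 FPKM in total RNA (121 and 89 reads). The aggregate libraries were both above the total RNA libraries but far apart from each other. The log2 change was 0.85 ± 0.35 (SE), adjusted p = 0.129 with limma. It was 1.28 without aggregate replicate 1, adjusted p = 0.00402 with limma, and over all settings the adjusted p ran from 0.00402 to 0.433.

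EMC3 had 11.5 and 9.02 FPKM in aggregates (38 and 22 reads), against 10.4 and 12.6 FPKM in total RNA (396 and 481 reads). The groups overlapped, with a log2 change of -0.15 ± 0.17 (SE), adjusted p = 0.523 with limma. Without aggregate replicate 2 the change was 0.01.

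**Figure D5:**
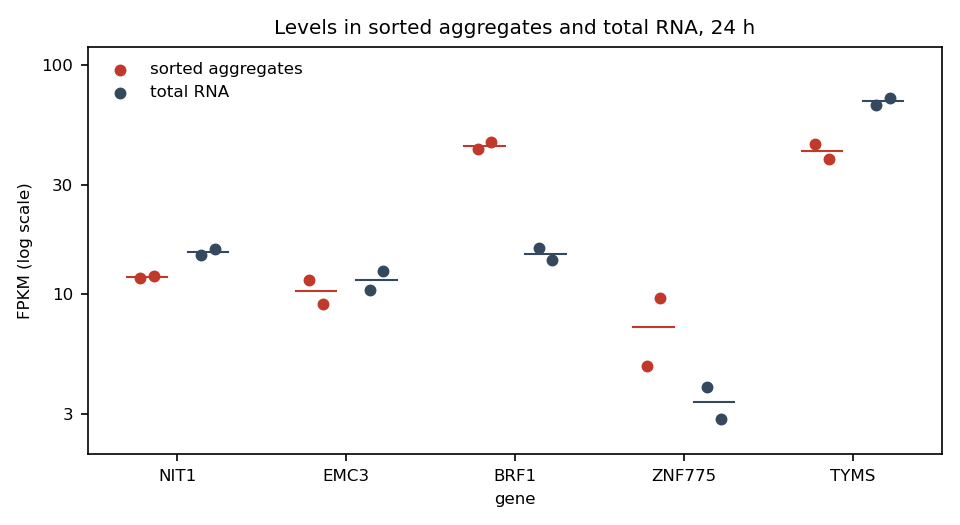
FPKM (vertical axis, log scale) of the 5 genes at 24 h in each library, sorted tau aggregates on the left of each pair and total RNA on the right, with a line at the mean of the 2 libraries. BRF1 stands at 43.1 and 46.0 in aggregates and at 15.8 and 14.1 in total RNA, TYMS is lower in aggregates, and the EMC3 groups overlap.

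Genes that lie beside the 5 genes were named because reads of overlapping genes cannot be told apart where counting without strand is possible, and the counting is not given in the sources used here. ENOSF1, which overlaps the end of TYMS on the opposite strand, had 17.8 and 22.4 FPKM in aggregates and 11.2 and 12.2 FPKM in total RNA, a log2 change of 0.72 ± 0.15 (SE), adjusted p = 0.028 with limma. It moved the other way from TYMS. TYMSOS, at the start of TYMS, rested on 1 read in each aggregate library and 46 and 71 reads in total RNA. PACS2, next to BRF1, had 24.3 and 24.0 FPKM in aggregates and 11.5 and 11.3 FPKM in total RNA, with a log2 change of 1.02 ± 0.08 (SE), adjusted p = 0.00731 with limma. DEDD had a log2 change of -0.31 ± 0.23 (SE), adjusted p = 0.332, and PFDN2 -0.27 ± 0.40 (SE), adjusted p = 0.618, both with limma.

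Each gene was then set beside genes of its pathway, with the count called in each direction at 24 h read against the 22.2% higher and 19.7% lower of all genes, whose median log2 change was 0.07. The counts moved with the processing, and the range over all settings stands beside each. BRF1 works with the other RNA polymerase III factors, and of 17 tested 4 rose (0 to 7) and 4 fell (0 to 7) in aggregates, with a median of -0.24. GTF3A, which binds the 5S rRNA gene, fell by 1.35 ± 0.08 (SE) on the log2 scale, and GTF3C3, a TFIIIC subunit, fell by 0.98 ± 0.09 (SE). SNAPC2, a subunit of the complex that binds snRNA promoters, fell by 0.95 ± 0.18 (SE) on 3 and 2 aggregate reads. The other 3 that rose with BRF1, named after their values were seen, were BRF2 (0.84 ± 0.14, SE), SNAPC4 (0.79 ± 0.10, SE) and GTF3C1 (0.41 ± 0.07, SE). Of 13 RNA polymerase III subunits 3 rose (0 to 6) and 4 fell (0 to 5), with a median of 0.14. POLR3F fell by 1.01 ± 0.20 (SE), POLR3GL fell by 0.96 ± 0.24 (SE) and POLR3G fell by 0.68 ± 0.14 (SE).

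Of the 10 ER membrane protein complex genes with EMC3, 1 rose (0 to 3) and 4 fell (0 to 6), with a median of -0.51. MMGT1 fell by 1.44 ± 0.31 (SE), EMC7 fell by 1.14 ± 0.17 (SE), EMC6 fell by 1.09 ± 0.12 (SE) and EMC2 fell by 0.87 ± 0.22 (SE), and EMC9 was the gene that rose, by 0.56 ± 0.08 (SE). Of 18 genes of thymidylate and deoxynucleotide synthesis with TYMS, 1 rose (0 to 4) and 9 fell (0 to 12), with a median of -0.38. RRM2B, a ribonucleotide reductase subunit, fell by 1.40 ± 0.13 (SE), and the kinases DCK and NME1 each fell by 1.17 (SE 0.16 and 0.09), though NME1 has a closely similar copy, NME2, and is uncertain. Of 9 tested nitrilase and glutathione genes with NIT1 0 rose (0 to 1) and 2 fell (0 to 7), with a median of -0.38: GGCT fell by 1.07 ± 0.11 (SE) and NIT2, the nearest relative of NIT1, fell by 0.70 ± 0.14 (SE).

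Of 14 zinc finger genes near ZNF775 on chromosome 7, 8 rose (0 to 11) and 0 fell (0 in every setting) at an adjusted p under 0.05 with limma, with a median of 0.76. ZNF767P, a pseudogene, rose by 1.24 ± 0.12 (SE), ZNF212 by 1.23 ± 0.09 (SE), ZNF786 by 0.95 ± 0.10 (SE) and ZNF783 by 0.88 ± 0.20 (SE). With each library centred on its median 8 rose and 0 fell again. Without total RNA replicate 1 or 2 no gene of any of the 6 lists was called.

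In the 96 h tables no list held a called splicing variation outside the 5 genes themselves. Of all genes 0.614% had one in the authors' deposited table. At that share lists of this size would often hold none, so nothing is read from the absence. Of the 460 introns of list genes with an adjusted p, 6 (1.3%) were called in the authors' deposited table, against 1.65% over the whole table. They stood in 2 genes of the authors' deposited table: GTF3C4, a TFIIIC subunit, had 4 with log2 changes of 0.72 to 1.00, and POLR1D, a subunit of RNA polymerases I and III, had 2 with 1.02 and 1.04. The median log2 change over the introns of the ER membrane protein complex genes was 0.32 in the authors' deposited table, beside 0.01 over the whole table. Those 52 introns include the 9 of EMC3, so the median is not separate from the EMC3 values above. None of the 29 with an adjusted p was called. The median was 0.15 for the RNA polymerase III factors, 0.09 for the subunits, 0.02 for thymidylate synthesis, -0.09 for the nitrilase and glutathione genes and 0.01 for the zinc finger genes in the authors' deposited table.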

How the data were processed

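The submitters' processing notes name STAR 2.6.0c, with hg38 for human and GRCm38.p6 for mouse libraries; counter and annotation: not given in the sources used here. FPKM were deposited by the authors for the 4 HEK293 libraries at 24 h. For the mouse libraries the authors deposited values with no named unit (score), which behave as FPKM. For the 6 libraries at 96 h the authors deposited 2 tables of group results: an intron table that holds the mean normalized count (signal), the log2 change with SE, p-value and adjusted p, and a MAJIQ table of splicing variations with PSI (fraction), its difference and a probability (other values), per the file headers. Of the variations 7.82% carry a gene ID with no name in the intron table, and an intron entry repeats the coordinates of the last listed junction, so the extent of a retained stretch is not given.

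FPKM of the 24 h libraries were joined by gene name (63 repeated names with repeated values dropped), kept at 1 FPKM or more in at least 2 libraries, and fitted with limma 3.58.1 (R 4.3.3) on log2(FPKM + 1) with a variance trend; calls needed a Benjamini-Hochberg adjusted p below 0.05. Fold changes on this scale understate the change of low genes. Whole reads were recovered from the FPKM steps (at least 99.988% of values within 0.02 of a whole number), 1 read on a gene of 1 kb being 0.841 and 1.14 FPKM in aggregates and 0.0731 and 0.0725 FPKM in total RNA. A voom fit on these reads called 7296 genes. Replicates differed by a mean squared z of 2.87 in aggregates and 2.24 in total RNA. Fits were tested on simulated data.

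The members and lists were chosen with earlier results of these data known. Named were the 5 genes, every junction of a called variation and the largest change elsewhere, introns next to called exons or with the smallest p, up to 4 called members a list, the 5 other genes with the largest called change in PSI, and neighbouring genes; EMC9 and 3 RNA polymerase III factors were named after their values were seen. A few genes that this rule names are not reported here. Sequences were not analysed here.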

Additional observations from a re-analysis of the deposited data

How the results depend on the processing

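BRF1 and TYMS kept their direction under all 13 alternatives and lost the call only without total RNA replicate 1 or 2. Leaving out 1 library at a time gave log2 changes of 1.44 to 1.59 in BRF1, -0.83 to -0.60 in TYMS, -0.38 to -0.30 in NIT1, 0.42 to 1.28 in ZNF775 and -0.31 to 0.01 in EMC3, whose sign turned without aggregate replicate 2 (0.0089, adjusted p = 0.953 with limma). The number of genes called ran from 0 to 9241 over these fits (0 to 4728 higher, 0 to 4515 lower), and the fit with 0 calls had 3391 genes at an unadjusted p under 0.05 with limma; the cause was not tested. A fit left with 1 library in a group assumes that it varies like the other group. NIT1 was called with median centring (-0.41), quantile normalization (-0.39) and a minimum of 10 expected reads (-0.34), and without aggregate replicate 1 or 2, and ZNF775 with voom (1.02, adjusted p = 0.0140) and without aggregate replicate 1 (1.28). The minimum of 10 reads, the voom fit and the removal of a length trend were chosen after seeing the data.

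With the replicate number as a block 4145 genes were called in place of 5512, and none of the 5 genes changed its call; among the RNA polymerase III subunits 1 fell in place of 4. Same-numbered libraries correlated at 0.06 in their deviations. With 2 libraries a group and few aggregate reads, that value cannot tell whether they share more than a number. For the 96 h tables no paired analysis was possible because the authors' tables hold no value per sample, and no library could be left out.

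Without a condition on the probability 2901 variations passed in the authors' deposited table in place of 124, and 17 junctions or introns of the 5 genes in place of 10. Of the 1351 called introns 571 passed at an adjusted p under 0.01 and 482 with an absolute log2 change of at least 1; none of the 5 genes' introns was called under any of these. With Benjamini-Hochberg adjustment over every deposited p, the leading EMC3 intron had 0.0998 in place of 0.0504. At 24 h 32 aggregate reads in all stood behind ZNF775 and 51 behind NIT1, with 2 libraries a group.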

Other observations

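The mouse counterparts of the 5 genes were measured as FPKM in brain libraries of 2 transgenic lines, rTg4510 with P301L tau and rTg21221 with wild-type (WT) tau; both transgenes are driven through Camk2a, a promoter of forebrain neurons. No splicing table was used for mouse, so these are levels with no test. Brf1 had 15.9 and 15.6 FPKM in the tau-12 immunoprecipitates of P301L brains, against 8.30 and 5.90 FPKM in their total RNA, and 12.6 and 11.1 FPKM in the immunoprecipitates of WT brains, against 9.43 and 8.28 FPKM in their total RNA. The sarkosyl-insoluble fractions had 12.1 and 11.1 FPKM in P301L brains and 8.85 and 10.6 FPKM in WT brains. The Brf1 immunoprecipitates stood above total RNA in both genotypes, and the WT sarkosyl fraction overlapped WT total RNA. Emc3 had 13.7 and 16.7 FPKM in the P301L immunoprecipitates, against 21.5 and 31.2 FPKM in total RNA, and 15.5 and 12.8 FPKM in the WT immunoprecipitates, against 25.9 and 25.4 FPKM in total RNA. The sarkosyl fractions had 22.6 and 21.7 FPKM of Emc3 in P301L brains and 22.6 and 25.8 FPKM in WT brains, which overlapped total RNA in both genotypes. Over all 12 libraries Nit1 ran from 3.40 to 6.06 FPKM with a median of 4.93. Zfp775, the mouse gene taken as the counterpart of ZNF775, ran from 0.597 to 2.81 FPKM with a median of 1.42. Its P301L immunoprecipitates had 2.81 and 1.77 FPKM, against 0.597 and 0.953 FPKM in total RNA. Its WT immunoprecipitates, at 1.08 and 1.13 FPKM, stood below WT total RNA, at 1.45 and 1.53 FPKM. Tyms was low, from 0.378 to 2.17 FPKM with a median of 1.14. In P301L brains the Tyms immunoprecipitates had 2.17 and 1.84 FPKM, against 1.1 and 1.39 FPKM in total RNA. In WT brains they had 1.22 and 1.07 FPKM, against 0.378 and 0.564 FPKM in total RNA. The Tyms immunoprecipitates stood above total RNA in both genotypes. TYMS was lower in HEK293 aggregates than in total RNA, but that is another fraction from another species. The contrast was not tested. The Tyms sarkosyl fractions overlapped total RNA in both genotypes. The P301L immunoprecipitates were grouped by their strain, since their titles name P301S. Their strain label also lists a (tet)-tdTomato-Syp/EGFP transgene.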
